A study of Homo sapiens with 9 samples.

Results

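The uninhibited definitive endoderm of this series was described from the 3 libraries labelled DE, out of 9 in all, chosen by that label and by no measured value. The other 6 libraries were made from the same kind of culture with an inhibitor of lipid metabolism added, and they were not used here. HUES8 is an established human embryonic stem cell line of WT genotype, per the labels. After 2 days in mTeSR1, a maintenance medium, the cells were moved to DMEM/F12 with activin A at 100 ng/mL, Wnt-3a at 50 ng/mL and 0.2% albumin free of fatty acids. Wnt-3a was withdrawn after 2 days, and 1 to 2 further days followed. Total RNA was extracted. The labels do not say whether the 3 libraries came from separate cultures or on which day each was harvested, so the SD over libraries may be technical only. The model is 1 cell line, and each library is a bulk measurement, in which fewer cells of a type and less RNA per cell cannot be told apart.

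Definitive endoderm is the germ layer from which the lining of the gut and the airways, the liver and the pancreas arise. In the embryo it leaves the primitive streak under strong NODAL signalling, and in culture activin A stands in for NODAL because both bind the same receptors and act through SMAD2 and SMAD3. WNT signalling starts the streak programme, with the T-box factors EOMES and TBXT, and the factors GATA6, SOX17 and FOXA2 then mark the endoderm. The cells also carry the chemokine receptor CXCR4 on their surface, and secreted NODAL antagonists such as CER1 and the LEFTY proteins limit the signal.

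Levels are given as TPM, a gene's count divided by its length and scaled so that all protein-coding genes of a library sum to 1000000. Levels of different genes are compared on this scale only, and each value is the mean ± SD over n = 3 libraries unless the 3 values are listed, in the order DE replicate 1, 2 and 3. The libraries held 20812616, 17379711 and 18756646 counts. At the median gene length, 1 TPM stood for 22.5, 19.0 and 20.5 counts. Of 19907 genes, 12974 (65.2%) had a mean of 1 TPM or more, 9109 had 10 or more, 1678 had 100 or more and 100 had 1000 or more. No count was recorded in any library for 2844 genes. The median over all genes was 7.01 TPM. Where genes are given in order, it is that of their mean TPM with the deposited lengths. Within roles this made 428 pairs of neighbours, and in 353 of them the ranges over the 3 libraries did not overlap. With the length of the principal transcript 49 of the 353 turned, HADHA over ACADVL among them, and with that of the longest transcript 37 turned.

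CER1, which encodes cerberus, a secreted antagonist of NODAL and BMP ligands, was the second most abundant protein-coding transcript in these cells. It stood at 23506, 22383 and 22243 TPM, or 2.27 ± 0.0692% of the TPM total. MT-CO1, a mitochondrial-encoded subunit of cytochrome oxidase, was higher in all 3 libraries, and the range of MT-CO2 overlapped that of CER1. MIXL1, a homeobox factor of the streak and its endoderm, stood at 1088, 1105 and 1080 TPM. These 2 promoters are shown because they belong to the 2 most abundant endoderm genes whose windows held a FOXH1-type match. FOXH1 is the DNA-binding partner of the SMADs downstream of NODAL. The letters searched were AATCCACA and AATACACA and their reverse complements, TGTGGATT and TGTGTATT, and matches are in capitals. The windows run from 250 bases before to 50 bases after the listed start, on RefSeq's GRCh38.p14, 5′ to 3′ on the gene's strand. CER1 lies on the minus strand at chr9:14722684-14722983 and its match begins 154 bases before the start. MIXL1 lies on the plus strand at chr1:226223414-226223713 and its match begins 249 bases before the start.
CER1: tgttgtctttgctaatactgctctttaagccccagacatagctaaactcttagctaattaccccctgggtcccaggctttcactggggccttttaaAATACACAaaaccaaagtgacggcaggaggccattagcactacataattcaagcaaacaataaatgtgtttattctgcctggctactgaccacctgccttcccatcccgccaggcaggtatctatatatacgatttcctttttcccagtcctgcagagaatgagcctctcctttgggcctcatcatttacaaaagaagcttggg
MIXL1: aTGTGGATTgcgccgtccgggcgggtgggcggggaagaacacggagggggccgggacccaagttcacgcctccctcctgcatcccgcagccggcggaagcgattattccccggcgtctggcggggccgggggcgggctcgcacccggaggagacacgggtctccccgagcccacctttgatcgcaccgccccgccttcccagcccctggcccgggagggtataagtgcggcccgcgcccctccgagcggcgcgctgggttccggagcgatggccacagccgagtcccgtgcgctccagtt

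Such a match stood in 161 of the 14896 promoters of measured genes, 1.08%. It stood in 3 of the 19 matched promoters of the endoderm list, those of CER1, MIXL1 and PRDM1, and in 3 of 12 of the streak list, those of MIXL1, SP5 and MESP2. None of the 18 matched pluripotency promoters and none of the 12 mesoderm promoters held it, but at 1.08% lists this small would seldom hold any. In the list of NODAL and activin genes it stood in 1 of 28, that of CER1. The promoters of NODAL, EOMES, GSC and GATA6 did not hold it. Single matches also stood in the WNT, retinoic acid and some lipid lists. Below 0.1 TPM the share was 2.18%. Among the 62 promoters of genes over 1000 TPM it stood in 3, those of CER1, MIXL1 and IFITM1, an interferon-induced membrane protein gene at 1727 ± 4.42 TPM. A match is a description of letters and was not tested as a binding site. FOXH1 itself was measured at 184, 172 and 170 TPM. Of its exon bases 31.6% are shared with another gene, as are 32.5% of those of IFITM1. The promoters differed in base composition, with 45.3% GC in CER1 and 73.3% in MIXL1, against a median of 63% over all matched promoters.

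The 5 markers against which the label was checked were abundant. SOX17, an HMG-box factor required for endoderm, stood at 1302, 1294 and 1222 TPM and ranked 73rd of 19907 genes. GATA6, a zinc-finger factor, stood at 545, 529 and 540 TPM and ranked 215. CXCR4 stood at 318, 316 and 320 TPM with a rank of 439, and FOXA2, a forkhead pioneer factor, at 233, 214 and 207 TPM with a rank of 669. All 3 libraries gave the same order, CER1, SOX17, GATA6, CXCR4 and FOXA2, with no overlap between neighbours. FOXA2, the lowest of the 5, was still above 96.6% of all genes with the deposited lengths, and it ranked 1119 with principal lengths. In GENCODE release 29 on GRCh38, CER1 lies on chromosome 9 from 14719724 to 14722717, GATA6 on chromosome 18 from 22169443 to 22202528 and CXCR4 on chromosome 2 from 136114349 to 136118165. FOXA2 lies on chromosome 20 from 22581005 to 22585455.

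**Figure D1:**
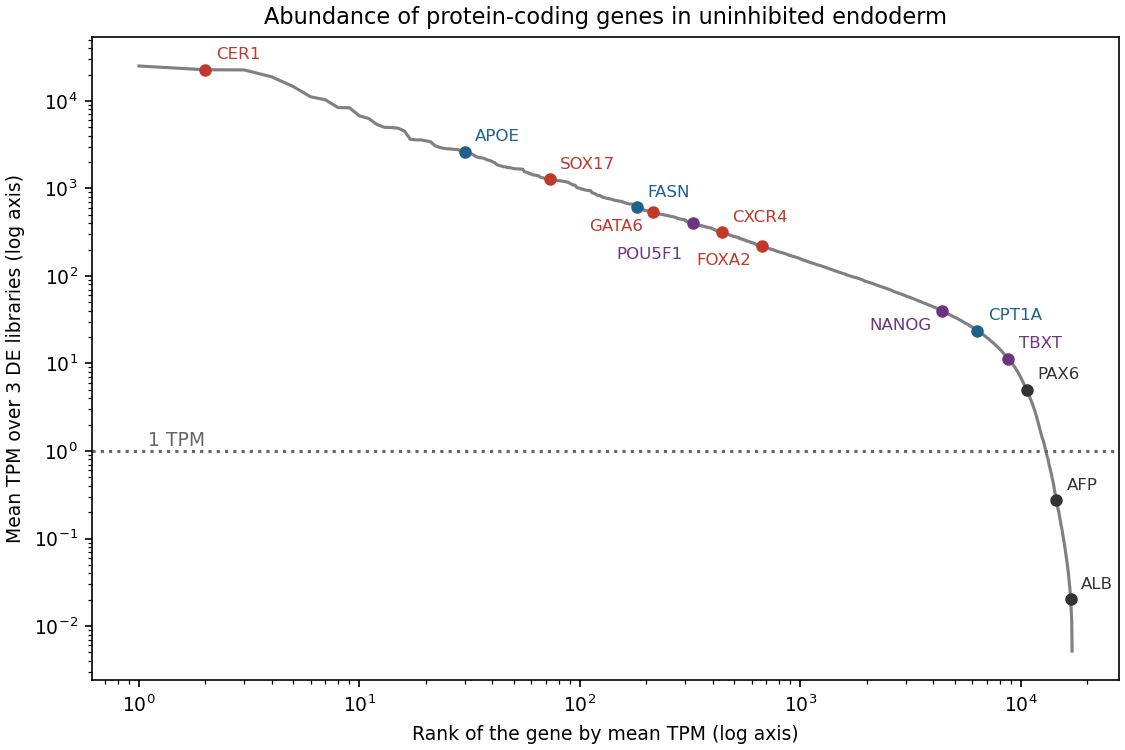
Mean TPM over the 3 DE libraries (log axis) of each protein-coding gene with a count, against its rank (log axis), with named genes marked in red for endoderm markers, blue for lipid genes, purple for pluripotency and streak genes and dark grey for other lineages. CER1 sits at rank 2 and 22711 TPM, the other 4 markers lie between 1273 and 218 TPM, and ALB is near the right end at 0.0204 TPM.

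Of the 100 most abundant transcripts, 13 were mitochondrial-encoded and 23 encoded ribosomal proteins. The 13 mitochondrial-encoded genes took 12.4 ± 0.494% of TPM and 3.01% of counts, and 82 cytosolic ribosomal protein genes took 7.15 ± 0.299% of TPM. In order of mean TPM, the 10 highest were MT-CO1, CER1, MT-CO2, MT-CO3, TMSB10, MT-ATP6, MT-ND4, ACTG1, ACTB and MT-ND4L, and together they held 14.9 ± 0.438% of TPM. TMSB10, an actin-binding thymosin, stood at 14642 ± 219 TPM, and the cytoplasmic actins ACTG1 and ACTB stood at 8391 and 8357 TPM. Next came the elongation factor gene EEF1A1 at 6306 TPM, MT-ND3, MT-ND1, MT-ND2, the ferritin light chain gene FTL at 4873 TPM, and MT-CYB. Among those that followed, between 3654 and 2775 TPM, were RPL41, RPS2, RPL13A, MT-ATP8, TUBB, MT-ND6, HSP90AB1, MT-ND5, HMGA1, EEF2 and GAPDH. LAPTM4B, a lysosomal membrane protein gene, and APOE, the lipid carrier apolipoprotein E, closed the 30 highest genes at 2650 and 2637 TPM. Several of these families have processed pseudogenes, so their values depend on how the counting placed reads that fit several copies.

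Beyond these, a small number of regulated genes stood among the housekeeping transcripts. Of the 100 genes over 1000 TPM, 10 belong to the lineage, signalling and lipid lists described here. They were CER1, APOE, FGF17, CYP26A1, LIN28A, LEFTY2, SOX17, TDGF1, LEFTY1 and MIXL1. The 100 most abundant genes took 32.8 ± 0.316% of TPM and the 1000 most abundant took 62.3%.

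Promoters of the most abundant genes can be set beside these levels. The windows below were chosen to show 2 sequence features at transcript starts. A TATA match was the letters TATAAA, on the gene's strand only, lying 40 to 15 bases before the start. A pyrimidine start was a C at the start base followed by C or T in an unbroken run of 5 or more, the letters by which the mRNAs of ribosomal proteins and elongation factors are known. The capitals mark the match. SERPINB9, a granzyme B inhibitor, stood at 2399 TPM. The TATA windows are those of CXCR4 (chr2:136118160-136118194, minus strand), SERPINB9 (chr6:2903320-2903354, minus strand) and ID1 (chr20:31605244-31605278, plus strand), and the match begins 30, 30 and 31 bases before the start. The start windows are those of EEF1A1 (chr6:73521018-73521042, minus strand), RPL13A (chr19:49487598-49487622, plus strand) and RPS6 (chr9:19380222-19380246, minus strand), and each run begins at the start base. All are from RefSeq on GRCh38.p14.
CXCR4: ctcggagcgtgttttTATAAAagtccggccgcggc
SERPINB9: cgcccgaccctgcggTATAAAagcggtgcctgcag
ID1: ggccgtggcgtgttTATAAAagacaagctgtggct
EEF1A1: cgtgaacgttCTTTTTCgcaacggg
RPL13A: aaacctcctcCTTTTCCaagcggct
RPS6: gaagttggccCTCTTTTCCgtggcg

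Over all matched promoters, 3.46% held the TATA match and 4.67% had the pyrimidine start. The TATA share was 9.10% below 0.1 TPM, 1.00% between 10 and 100 TPM and 8.06% (5 of 62) over 1000 TPM. The share with a pyrimidine start was 2.39% in the lowest class, 10.2% between 100 and 1000 TPM and 33.9% (21 of 62) over 1000 TPM. Of these 21 genes, 14 encode ribosomal proteins and 2 encode elongation factors. Ribosomal protein genes make up 18 of the 62 promoters over 1000 TPM, so the share in that class rests largely on them. Median GC content was 51% in the lowest class, 66% from 10 to 1000 TPM and 62.8% over 1000 TPM. The shares are descriptions of these windows, and 62 promoters make each share in the top class imprecise.

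**Figure D2:**
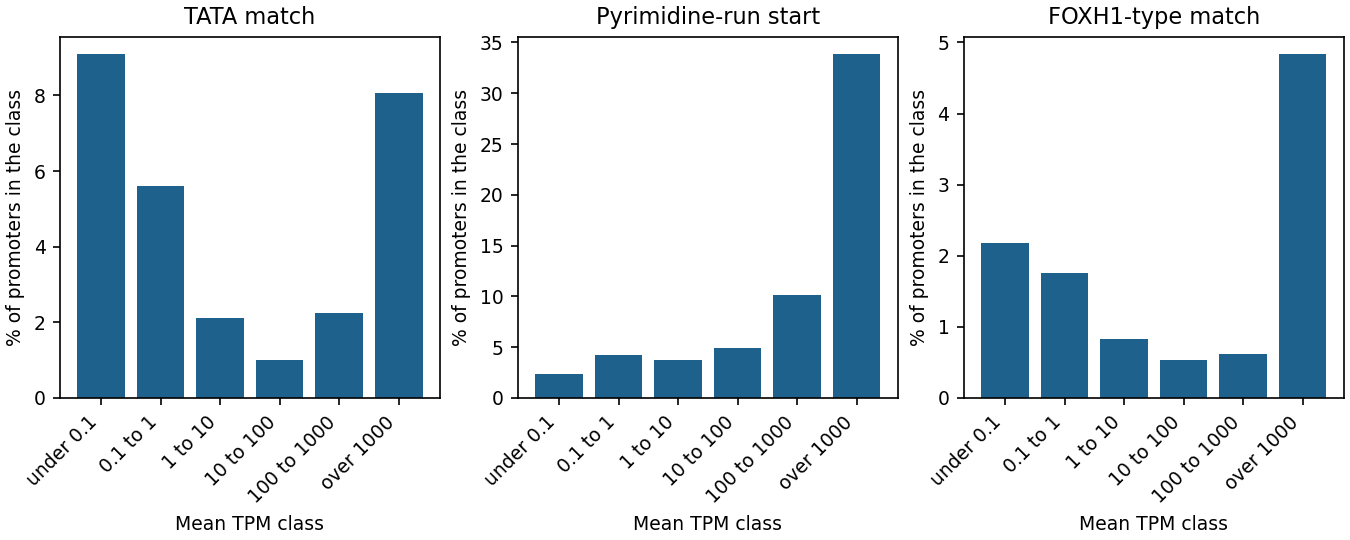
Percent of promoters holding a TATA match, a pyrimidine start or a FOXH1-type match (y axes, separate scales from 0), by class of mean TPM over the 3 DE libraries (x axis, 6 classes of 62 to 6003 promoters). The pyrimidine start reaches 33.9% over 1000 TPM against 2.39% under 0.1 TPM, and the TATA match is lowest at 10 to 100 TPM, 1.00%.

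The genes of the endoderm list stood far above the typical gene. The list holds the markers above and was chosen with earlier results of these data known, so its level is a description only. Of 32 genes on the endoderm list, 30 had 1 TPM or more, against 65.2% of all genes, and the list's median was 182 TPM. Of 15 transcription factors, 14 stood above 1 TPM, and SOX17, MIXL1, EOMES, GSC, GATA6, OTX2, GATA4, FOXA2, FOXA3, HHEX, PRDM1, LHX1 and HNF4A were among them, in that order. EOMES, the T-box factor that acts upstream of SOX17, stood at 986, 910 and 935 TPM. GSC, the organizer homeobox factor goosecoid, stood at 606, 603 and 559 TPM, and OTX2, a homeobox factor of anterior endoderm and brain, at 447, 446 and 428 TPM. GATA4 was at 374, 342 and 337 TPM. The ranges of these neighbours did not overlap, so the order of the leading 8 factors held in every library.

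The FOXA factors were unequal. FOXA2 held 75.02 ± 1.08% of the TPM of the 3 FOXA genes and FOXA3 24.7 ± 1.05%, while FOXA1 stood at 0.721 ± 0.0945 TPM. HHEX, a homeobox factor of anterior endoderm and liver bud, was at 65.5, 63.7 and 68.1 TPM, and FOXA3 at 71.9 ± 0.308 TPM. With the length of the principal transcript, the order of these 2 turned. HNF4A, a hepatocyte nuclear factor, stood at 8.26 ± 0.761 TPM.

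Of the surface proteins, all 8 stood above 1 TPM, in the order CDH2, EPCAM, CXCR4, ACKR3, CDH1, KIT, GPR37 and CD9. CD9, a tetraspanin, stood at 79.0 TPM with the deposited length and at 130 TPM with the principal one, which put it above CDH1, KIT and GPR37. CDH2, N-cadherin, stood at 915, 858 and 878 TPM and CDH1, E-cadherin, at 125, 119 and 121 TPM. The TPM ratio of CDH2 to CDH1 was 7.28 ± 0.0509. KIT, the receptor for stem cell factor, overlapped CDH1 at 117 ± 6.86 TPM. EPCAM, the epithelial adhesion molecule, stood at 621 ± 13.1 TPM, so transcripts of epithelial and of N-type adhesion molecules were both abundant in the bulk RNA. Of 9 genes for secreted signals and matrix synthesis, CER1, FGF17, LEFTY2, LEFTY1, HAS2, FRZB, DKK1 and APELA reached 1 TPM. HAS2, a hyaluronan synthase of the plasma membrane, stood at 145 TPM, and APELA, the peptide ligand of the apelin receptor, was close to the limit at 1.06 TPM.

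The factors of the primitive streak stood at unequal levels. Of 16 genes, 12 (75%) had 1 TPM or more, against 65.2% of all genes, with a median of 27.4 TPM. Of the factors, MIXL1, EOMES, GSC, SP5, NKX1-2, EVX1, TBXT and TBX6 reached it, in falling order. TBXT, brachyury, stood at 12.7, 11.9 and 9.51 TPM, and its range overlapped that of EVX1. The MIXL1 to TBXT ratio of TPM was 85.9, 93.2 and 114 in the 3 libraries, so MIXL1 was far above TBXT in each. TBX6, a factor of presomitic mesoderm, was at 3.87 ± 0.531 TPM, and MESP1 and MESP2 were at 0.878 and 0.728 TPM. The 4 streak ligands NODAL, FGF8, WNT3 and FGF4 stood at 488, 147.7, 51.5 and 32.7 TPM.

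Pluripotency genes were still measured at very different levels. Of 24 genes, 20 (83.3%) had 1 TPM or more, against 65.2% of all genes, with a median of 28.96 TPM. In order, the factors included POU5F1, SALL4, DPPA4, ZFP42, NANOG, SOX2, PRDM14, DPPA2, FOXD3, UTF1, TFCP2L1 and KLF4. POU5F1, which encodes OCT4, stood at 370, 403 and 424 TPM and ranked 326. NANOG stood at 39.9, 39.6 and 40.6 TPM and SOX2 at 34.1, 37.1 and 36.6 TPM. These 2 core factors were far below POU5F1, with the TPM ratio of POU5F1 to NANOG at 9.97 ± 0.606 and POU5F1 to SOX2 at 11.1 ± 0.420. With principal transcript lengths the ratios were 19.5 and 22.6. SOX17 was 3.20 ± 0.316 times POU5F1, and 1.56 times with principal lengths. POU5F1 has near-identical pseudogene copies, and 8.56% of its exon bases are shared with TCF19, so its level is uncertain to that extent.

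The factors of naive pluripotency were low or without a count. KLF4 and TFCP2L1 stood at 1.36 and 2.11 TPM, ESRRB and DPPA3 were under 1 TPM, and DPPA5 and KLF17 had 0 counts in all 3 libraries. ZFP42, which encodes REX1, was at 71.6, 71.2 and 74.5 TPM, and PRDM14 was lower, below SOX2. The other genes of the list, in order LIN28A, TDGF1, L1TD1, DNMT3B, LIN28B, FGF2 and TERT, all reached 1 TPM. LIN28A, an RNA-binding protein that blocks let-7 maturation, stood at 1511, 1521 and 1520 TPM and ranked 58. DNMT3B, a de novo DNA methyltransferase, was at 332 ± 18.6 TPM. UTF1 was the most uneven gene of the list, at 7.64, 18.3 and 9.28 TPM with replicate 2 high.

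**Figure D3:**
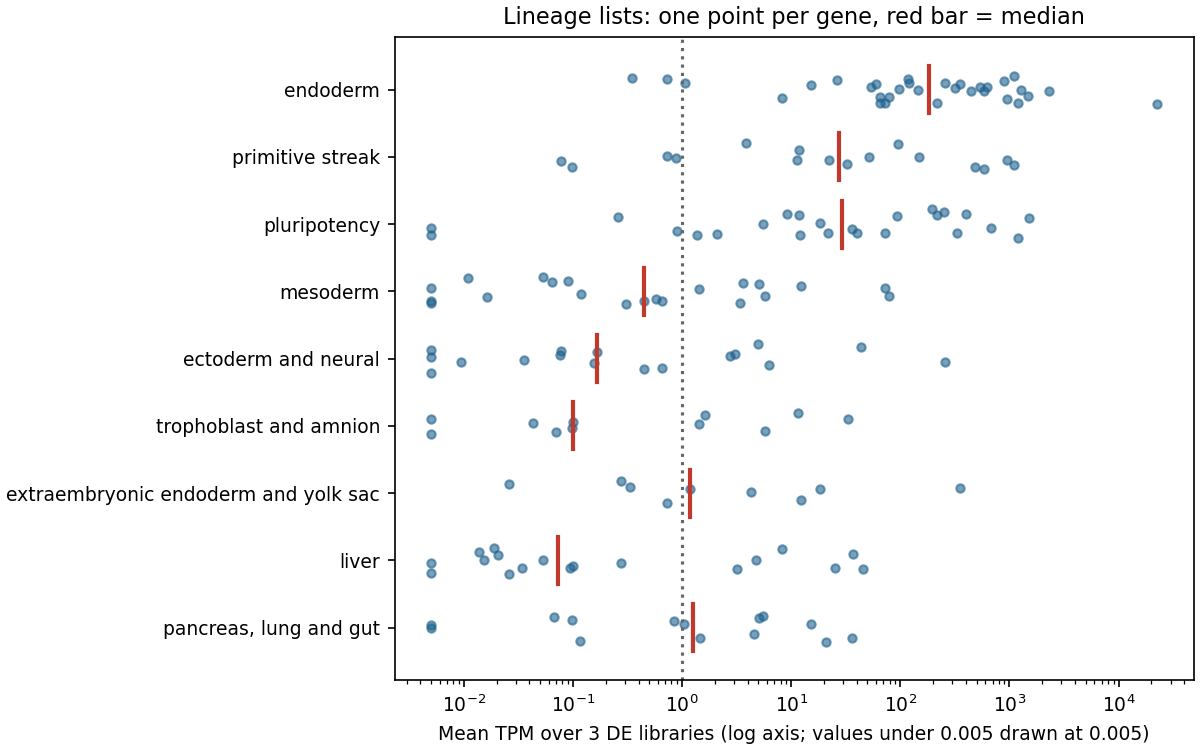
Mean TPM over the 3 DE libraries (x axis, log, values under 0.005 drawn at 0.005) of each gene of 9 lineage lists (rows), 1 point per gene, with a red bar at the list's median and a dotted line at 1 TPM. The endoderm median is 182 TPM, the streak and pluripotency medians are 27.4 and 28.96 TPM, and the medians of the other 6 lists lie between 0.0731 and 1.25 TPM.

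Genes of the mesoderm list and of the ectoderm and neural list were mostly under 1 TPM, with exceptions. Of 21 mesoderm genes, 8 (38.1%) reached 1 TPM, against 65.2% of all genes, with a list median of 0.449 TPM. Their order was FOXC1, KDR, PDGFRA, ISL1, NKX2-5, TBX20, TWIST1 and HAND1. KDR, a VEGF receptor, stood at 73.8, 70.1 and 73.9 TPM, and FOXC1, a forkhead factor, overlapped it at 78.2 ± 4.56 TPM. MSGN1, MEOX1 and MYOD1 had 0 counts, and FOXF1, a lateral mesoderm factor, stood at 0.0535 TPM. Of 17 ectoderm and neural genes, 6 (35.3%) reached 1 TPM, NES, SOX10, ZIC1, PAX6, TUBB3 and SOX3. NES, an intermediate filament gene also used as a stem cell marker, was at 253, 258 and 267 TPM, and SOX10, a neural crest factor, at 48.4, 41.5 and 42.3 TPM. SOX1, a factor of neural tissue, was at 0.167 TPM. NEUROD1, KRT5 and KRT14 had 0 counts.

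Of 11 trophoblast and amnion genes, 5 (45.5%) reached 1 TPM, against 65.2% of all genes. They were GATA3, TFAP2C, ISL1, GABRP and HAND1. GATA3 stood at 34.9, 31.8 and 33.4 TPM, while GCM1 and VTCN1 were at 0.0703 and 0.0435 TPM and CGA and ELF5 had 0 counts. Extraembryonic endoderm shares GATA4 and GATA6 with definitive endoderm. Of 9 genes of that list, 5 (55.6%) reached 1 TPM, near the share of all genes. They were GATA4, DAB2, PDGFRA, AMN and CUBN. SOX7, a marker of parietal endoderm, stood at 0.468, 0.762 and 0.963 TPM, and AFP, the yolk sac and fetal liver protein, at 0.231, 0.342 and 0.253 TPM. TTR had 1 count in the 3 libraries together.

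The lists of endoderm derivatives had medians of 0.0731 TPM for liver and 1.25 TPM for pancreas, lung and gut, against 7.01 TPM over all genes. Of 18 liver genes, 6 (33.3%) reached 1 TPM, against 65.2% of all genes, in the order APOA2, TBX3, APOA1, HNF4A, CEBPA and PROX1. APOA2 and APOA1, apolipoproteins of high-density lipoprotein, stood at 46.8, 47.2 and 42.4 TPM and at 23.3, 27.1 and 24.7 TPM. ALB had 1 count over the 3 libraries, and APOC3 and SERPINA1 had 0. Of 14 factors of pancreas, lung and gut, 8 (57.1%) reached 1 TPM, near the 65.2% of all genes. Among them, in order, were SOX2, TBX1, MNX1, NKX2-5, NKX2-1, ONECUT1 and PAX8. PDX1 and NEUROG3, factors of the pancreas, had 0 counts. For PDX1, 3 counts over the 3 libraries together would be 0.0819 TPM, a limit that covers counting error only. CDX2, of the hindgut, was at 0.0986 TPM. Across the 9 lineage lists, 89 of 147 genes reached 1 TPM, a share near the 65.2% of all genes.

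NODAL pathway genes were dominated by the antagonists. NODAL itself stood at 487, 493 and 484 TPM and GDF3, a related ligand, at 52.9 ± 0.674 TPM. INHBE was at 2.30 TPM and the other 4 ligands were under 1 TPM. MSTN and GDF1 had 0 counts, and GDF1 shares all its exon bases with CERS1, so reads there may not have been assigned. Activin A in the medium is protein and leaves no count. TDGF1, which encodes the NODAL co-receptor cripto, stood at 1214, 1182 and 1237 TPM, or 2.48 ± 0.0807 times NODAL. The receptors were lower, in the order TGFBR1, ACVR2B, ACVR1B, ACVR2A, TGFBR2 and TGFBR3, with TGFBR1 at 66.6 ± 1.13 TPM and TGFBR3 at 2.07 TPM. The type II receptor ACVR2B (40.7 ± 1.82 TPM) and the type I receptor ACVR1B (39.9 ± 0.307 TPM) overlapped.

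All 12 intracellular members of the pathway stood above 10 TPM, against 45.8% of all genes. Their order was DRAP1, FOXH1, PMEPA1, TGIF2, SKI, SKIL, TGIF1, SMAD7, TRIM33, SMAD3, SMAD4 and SMAD2. DRAP1, a corepressor that binds FOXH1, was at 229 TPM. PMEPA1 and SMAD7, feedback inhibitors, were at 135 ± 4.03 and 69.0 ± 2.48 TPM. The signal-carrying SMAD3, SMAD4 and SMAD2 were at 28.4, 24.1 and 15.6 TPM and thus below their feedback inhibitors. The secreted antagonists in order were CER1, LEFTY2, LEFTY1, FST, FSTL3 and INHA. LEFTY2 stood at 1482, 1507 and 1420 TPM and LEFTY1 at 1147, 1221 and 1213 TPM. The CER1 to NODAL ratio was 46.6 ± 1.51 and that of LEFTY2 to NODAL 3.01 ± 0.0657. LEFTY1 and LEFTY2 are close copies, so the split between them is uncertain, and 46.6% of the exon bases of LEFTY1 and 41.2% of those of NODAL are shared with another gene. FST, follistatin, which binds activin, was at 279, 298 and 285 TPM. Across the whole list of 34 genes, 28 (82.4%) reached 1 TPM, against 65.2% of all genes, and the median was 40.3 TPM.

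**Figure D4:**
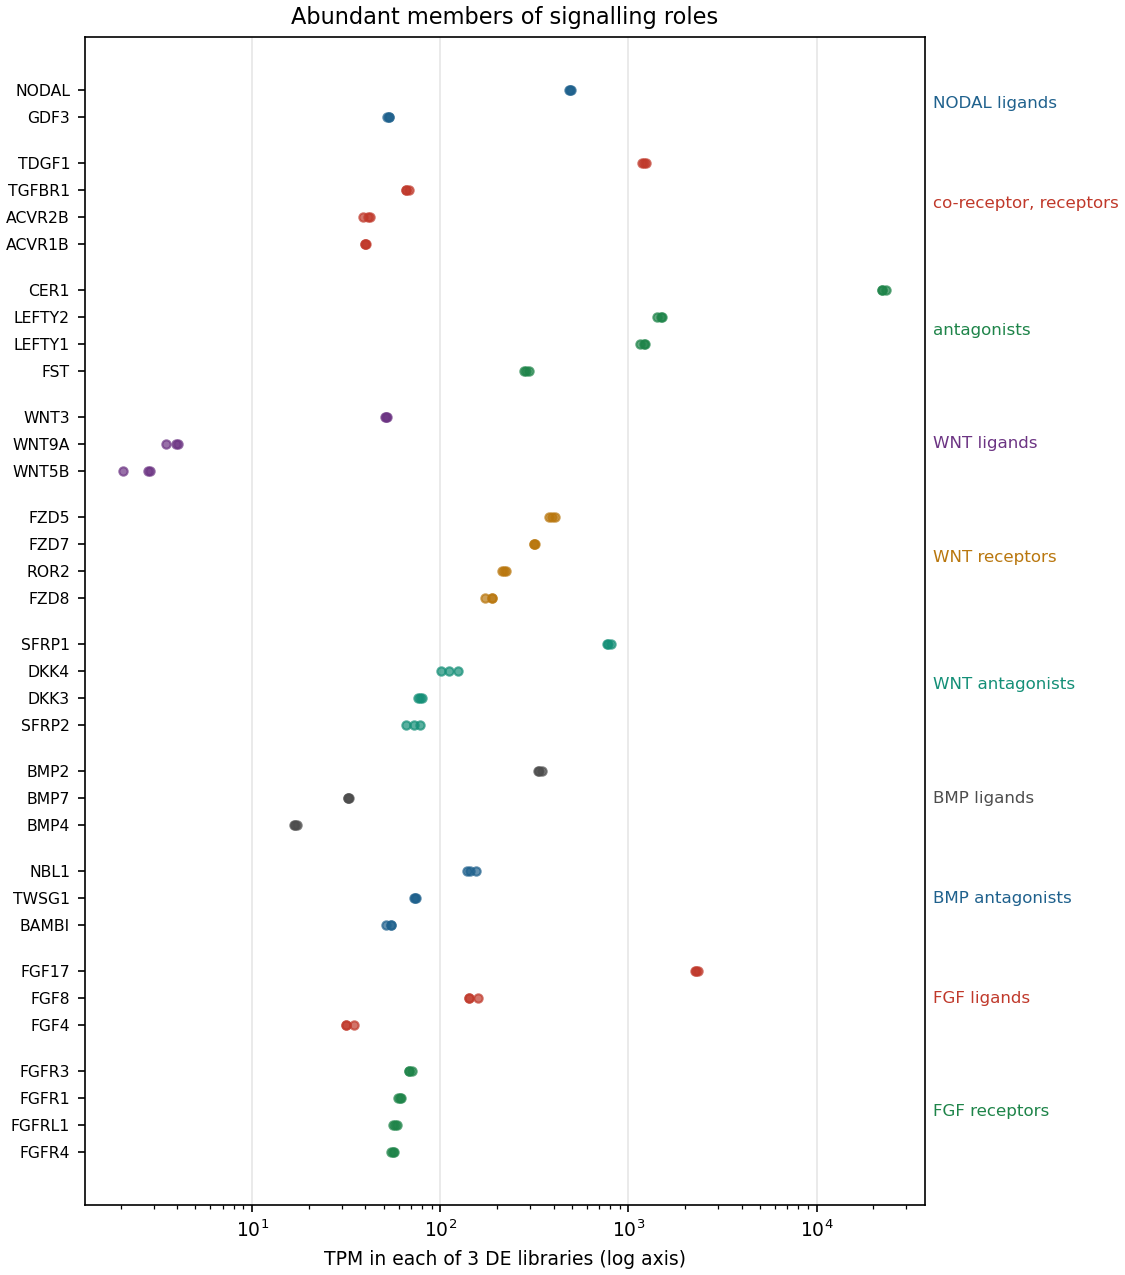
TPM in each of the 3 DE libraries (x axis, log) of abundant members of signalling roles (rows), 1 point per library, coloured by role. CER1 stands at 22243 to 23506 TPM against 484 to 493 TPM for NODAL, and FGF17 at 2247 to 2345 TPM against 142 to 158 TPM for FGF8.

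Of 72 WNT genes, 51 (70.8%) reached 1 TPM, near the 65.2% of all genes, and WNT3, FZD5 and SFRP1 led the ligands, receptors and secreted antagonists. WNT3 stood at 52.1, 51.0 and 51.2 TPM and held 76.1 ± 2.22% of the TPM of 19 ligands. WNT9A, WNT5B, WNT5A, WNT11, WNT4 and WNT8A followed between 3.81 and 1.07 TPM, and WNT2 and WNT8B had 0 counts. WNT3A, the ligand that was added as protein in the first 2 days, was at 0.257 TPM. The receptors at 1 TPM or more were FZD5, FZD7, ROR2, FZD8, LGR5, FZD2, RYK, LRP5, LGR4, FZD4, LRP6, ROR1, FZD6, FZD3, FZD9, FZD1 and LGR6. FZD5, a frizzled receptor, stood at 407, 378 and 391 TPM and FZD7 at 317, 316 and 314 TPM. LGR5, a receptor for R-spondins, was at 74.8 ± 2.58 TPM. Of the R-spondins themselves RSPO4 was at 4.67 TPM and RSPO2 had 0 counts, while PORCN and WLS, which load and carry WNT proteins, were at 122 and 77.9 TPM.

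Of the WNT antagonists, SFRP1, DKK4, DKK3, SFRP2, FRZB, DKK1, NOTUM and SFRP5 reached 1 TPM. SFRP1, a secreted frizzled-related protein, stood at 811, 768 and 780 TPM, 29.8 ± 1.497 times DKK1. DKK4 was uneven, at 101, 112 and 124 TPM, and SFRP2 was at 66.1, 78.1 and 72.5 TPM. Of 18 intracellular and feedback genes, 16 reached 1 TPM, in the order CTNNB1, TCF7L1, CSNK1A1, DVL1, SP5, DVL2, DVL3, GSK3A, AXIN2, AXIN1, GSK3B, TCF7L2, APC, ZNRF3, TCF7 and NKD1. CTNNB1, beta-catenin, was at 202 ± 0.740 TPM. Among its DNA-binding partners, TCF7L1 was at 132 ± 8.06 TPM and LEF1 at 0.386, 0.208 and 0.385 TPM, so they differed widely. AXIN2 and SP5, feedback and target genes, were at 54.8 ± 2.77 and 94.5 ± 7.76 TPM. RNF43 was under 1 TPM, with 73.9% of its exon bases shared with another gene.

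BMP2 was the leading BMP ligand. It stood at 348, 333 and 330 TPM and held 86.7 ± 0.278% of the TPM of 8 BMP genes. BMP7, BMP4, BMP5 and GDF6 followed at 32.6, 17.1, 1.45 and 1.24 TPM. Of the 12 ligands of the list, 5 (41.7%) reached 1 TPM. Over the whole list of 35 BMP genes, 27 (77.1%) did, against 65.2% of all genes. The receptors BMPR2, BMPR1A, ACVR1 and BMPR1B stood at 67.5, 42.6, 40.6 and 2.56 TPM. All 10 intracellular genes and targets reached 1 TPM, in the order ID1, ID3, SMAD5, SMAD6, MSX2, ID2, SMAD1, ID4, SMAD9 and MSX1. ID1, an inhibitor of basic helix-loop-helix factors and a direct BMP target, was at 283, 292 and 289 TPM, and ID3 at 172 ± 0.987 TPM. All 8 antagonists reached 1 TPM. Among them were NBL1, TWSG1 and BAMBI at 145, 73.2 and 53.6 TPM, and CHRDL1, NOG, CHRD and GREM1 between 2.06 and 1.19 TPM. The classical organizer antagonists NOG and CHRD, whose ranges overlapped each other, were thus far below NBL1.

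FGF17 was the 34th most abundant transcript. This ligand of the FGF8 subfamily stood at 2345, 2285 and 2247 TPM and held 90.3 ± 0.439% of the TPM of 22 FGF ligands. FGF8 stood at 143, 158 and 142 TPM, and the FGF17 to FGF8 ratio was 15.6 ± 1.00. FGF4, FGF13, FGF11, FGF2, FGF12, FGF19, FGF20, FGF10 and FGF16 followed between 32.7 and 1.45 TPM, and FGF5 and FGF6 had 0 counts. Of the 22 ligands, 11 (50%) reached 1 TPM. Over the whole list of 41 FGF genes, 28 (68.3%) did, near the 65.2% of all genes. The receptors FGFR3, FGFR1, FGFRL1, FGFR4 and FGFR2 lay close together, from 69.1 ± 1.55 to 48.5 ± 1.66 TPM. With principal lengths FGFR1 stood above FGFR3, at 88.8 against 48.3 TPM, so their order is uncertain. All 12 feedback and ETS genes reached 1 TPM, in the order DUSP4, SPRY2, SPRED2, ETV4, SPRED1, SPRY4, DUSP6, ETV5, ETV1, SPRY1, FOS and EGR1. DUSP4, an ERK phosphatase, was at 209 ± 7.20 TPM and SPRY2, a sprouty inhibitor, at 127 ± 2.32 TPM. The immediate early genes FOS and EGR1 were at 5.83 and 5.45 TPM.

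Retinoic acid genes were led by breakdown and binding. CYP26A1, the enzyme that oxidises retinoic acid, stood at 2010, 2073 and 2008 TPM, ranked 40 and held 99.97% of the TPM of the 3 CYP26 genes. Of its exon bases 25.2% are shared with another gene. ALDH1A3, RDH10, DHRS3 and ALDH1A1, of synthesis and retinal handling, stood at 76.5, 9.85, 3.07 and 1.23 TPM, and ALDH1A2 at 0.0166 TPM. CRABP2 and CRABP1, cellular binding proteins, were at 515 ± 1.81 and 414 ± 9.64 TPM, and 47.2% of the exon bases of CRABP1 are shared with another gene. The receptors RXRB, RXRA, RARA, RXRG, RARG and RARB stood between 32.4 and 6.51 TPM, and STRA6 at 4.44 TPM.

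Of the Notch genes, 13 of 19 (68.4%) reached 1 TPM, near the 65.2% of all genes. The ligands JAG2, DLL3, DLL1 and JAG1 were at 23.2, 10.4, 8.92 and 4.54 TPM, and the receptors NOTCH3, NOTCH1 and NOTCH2 at 132, 32.1 and 21.4 TPM. HES4, MAML1, RBPJ, HES1, HEY2 and LFNG were the effectors and modifiers at 1 TPM or more, with HES4 at 122 ± 4.08 TPM. Of 11 hedgehog genes, 9 (81.8%) reached 1 TPM, with SMO, GLI2, SUFU, PTCH1, GLI3, SHH, GLI1 and IHH among them. SMO, the signal transducer, was at 89.5 TPM and the ligand SHH at 5.86, 4.03 and 5.04 TPM. The chemokine ligand CXCL12 stood at 4.52, 5.46 and 5.47 TPM, and CXCR4 was 62.3 ± 7.09 times higher, or 22.2 times with principal lengths. ACKR3, a scavenger receptor for CXCL12, was at 259, 260 and 248 TPM, and APLNR at 5.55 TPM. MIF was at 292 TPM, with 61.9% of its exon bases shared.

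Among growth factor genes, the insulin and IGF genes at 1 TPM or more were IGFBP2, IGF1R, IGF2R, IGFBP5, IRS2, INSR, IRS1, IGFBP3, IGF2 and IRS4. IGF1R was at 77.2 ± 4.59 TPM and INSR at 14.99 TPM. KIT, ERBB4, KDR, ERBB2, VEGFA, ERBB3, PDGFA, KITLG, PDGFRA, FLT1, MET, PDGFRB and EGFR followed from 117 to 1.77 TPM. With the principal transcript, VEGFA stood at 232 TPM in place of 31.0 TPM, above KIT at 77.7 TPM, and ERBB2 stood above KDR and ERBB4. ERBB4 and ERBB2, receptors of the EGF receptor family, stood at 81.3 ± 3.34 and 65.9 TPM, far above EGFR. Over all signalling lists, 199 of 261 genes reached 1 TPM, against 65.2% of all genes.

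Most genes of fatty acid synthesis were expressed, and the leading ones were abundant. Of 43 fatty acid synthesis genes, 39 (90.7%) reached 1 TPM, against 65.2% of all genes, with a median of 51.8 TPM. All 6 genes of carbon and NADPH supply stood above 10 TPM, against 45.8% of all genes. Among them, in order, were IDH1, ACLY, SLC25A1, ACSS2 and ME1. IDH1, the cytosolic isocitrate dehydrogenase, stood at 785, 816 and 810 TPM, and ACLY, which splits citrate into acetyl-CoA, at 502, 475 and 491 TPM. SLC25A1, the citrate carrier, stood at 381 ± 6.02 TPM. FASN, fatty acid synthase, stood at 633, 610 and 599 TPM and ranked 182. ACACA, acetyl-CoA carboxylase 1, stood at 64.4, 59.2 and 63.3 TPM and held 98.6 ± 0.147% of the TPM of the 2 carboxylases. ACACB was at 0.912 TPM and the thioesterase gene OLAH at 0.206 TPM. The FASN to ACACA ratio was 9.86 ± 0.420.

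SCD, the delta-9 desaturase that makes oleate, stood at 989, 931 and 934 TPM, with 97.4 ± 0.118% of the TPM of SCD and SCD5. FADS2, FADS1, SCD5 and FADS3 followed at 198, 95.1, 25.8 and 9.06 TPM. The SCD to FADS2 ratio of 4.80 ± 0.110 became 1.58 with principal lengths. In the elongation cycle the order was ELOVL5, HACD3, ELOVL2, HACD2, HSD17B12, ELOVL6, ELOVL1, TECR, HACD1, ELOVL4 and ELOVL7, and ELOVL3 had 0 counts. ELOVL5, which extends polyunsaturated chains, stood at 193, 184 and 188 TPM and ELOVL2 at 155, 139 and 140 TPM. ELOVL6, which extends palmitate, was at 64.3 ± 1.06 TPM, above ELOVL1 at 59.8 ± 1.92 TPM, an order that turned with principal lengths. Mitochondrial synthesis genes were NDUFAB1, CBR4, MCAT, MECR, HSD17B8, ACSF3 and OXSM, with NDUFAB1, the acyl carrier protein of the mitochondrion and of complex I, at 170 TPM.

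Of the regulators, SREBF2, INSIG1, NR1H2, SREBF1, SCAP, INSIG2, NR1H3 and MLXIPL reached 1 TPM and THRSP had 0 counts. SREBF2, the sterol-regulatory factor of cholesterol genes, stood at 173, 165 and 165 TPM and SREBF1, of lipogenic genes, at 52.6, 52.6 and 50.2 TPM, a ratio of 3.24 ± 0.0837. Of 22 uptake and activation genes, 13 (59.1%) had 1 TPM or more, near the 65.2% of all genes, with a median of 4.03 TPM. FABP5, a fatty acid binding protein, stood at 249, 270 and 256 TPM and held 91.8 ± 1.40% of the FABP total. VLDLR, SLC27A4, SLC27A3, FABP3, SLC27A1, SLC27A6, SLC27A2 and SLC27A5 were lower, between 69.6 and 1.99 TPM. CD36 and LPL, which take up fatty acids in muscle and fat, were at 0.0799 and 0.293 TPM. ACSL3, ACSL4 and ACSL1, acyl-CoA synthetases, stood at 78.2, 32.7 and 6.69 TPM, and ACSL3 held 66.4 ± 0.163% of the group.

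The fatty acid oxidation list had a lower median than the synthesis list, 23.8 against 51.8 TPM, but the levels of their genes overlapped. Of 41 oxidation genes, 37 (90.2%) reached 1 TPM, against 90.7% of synthesis genes and 65.2% of all genes. The highest oxidation gene stood at 228 TPM and the highest synthesis gene at 951 TPM. Some oxidation genes, HADHA among them, stood above ACACA. The carnitine shuttle carries acyl chains into mitochondria, and its order was CRAT, SLC25A20, CPT1A, CPT1C, CPT2, CROT, SLC22A5 and CPT1B. CPT1A, the form of the rate-limiting transferase found in liver, stood at 22.3, 23.8 and 25.3 TPM. CPT1C, the form known from brain, stood at 11.8, 13.2 and 11.5 TPM, and CPT1B, the muscle form, at 1.27 TPM, with 66.4% of its exon bases shared. CPT1A held 64.0 ± 2.86% of the CPT1 total and 53.1% with principal lengths. FASN was 28.4, 25.6 and 23.7 times CPT1A on the TPM scale, with a mean of 25.9 ± 2.34 and 22.5 with principal lengths. CPT1A and SLC25A20, the carnitine-acylcarnitine carrier (24.7 ± 2.73 TPM), overlapped.

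**Figure D5:**
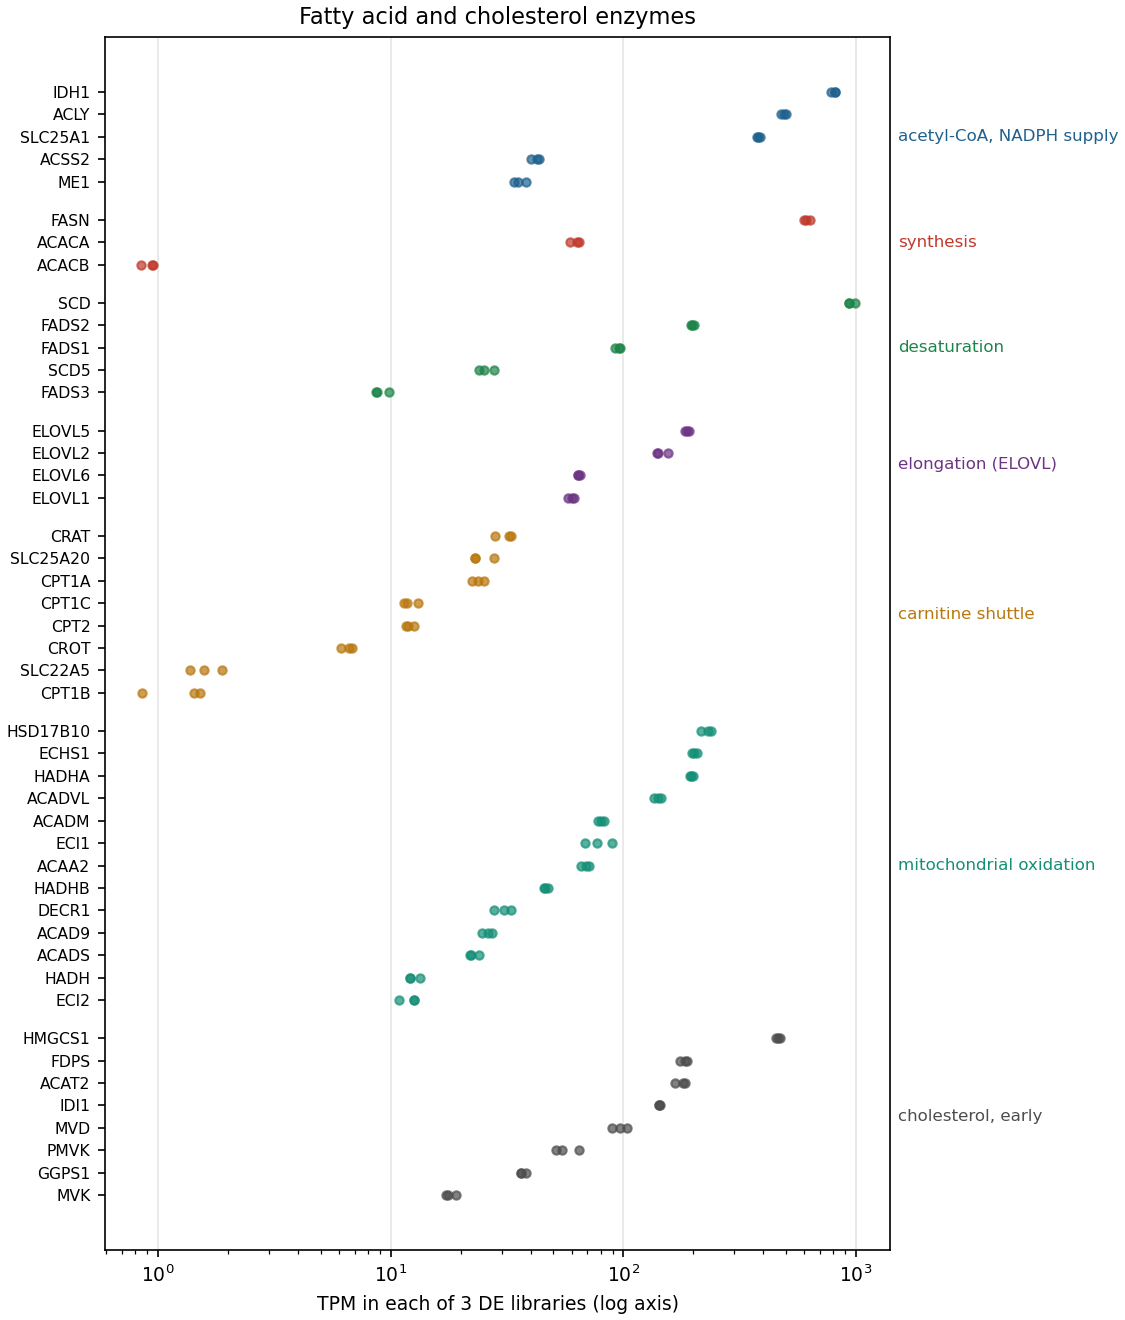
TPM in each of the 3 DE libraries (x axis, log) of genes of fatty acid synthesis, the carnitine shuttle, mitochondrial oxidation and the early cholesterol pathway (rows), 1 point per library, coloured by role. FASN lies at 599 to 633 TPM and CPT1A at 22.3 to 25.3 TPM, and the 3 points of most genes nearly coincide.

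Within mitochondrial oxidation, 13 of 14 enzymes reached 10 TPM, against 45.8% of all genes. Their order was HSD17B10, ECHS1, HADHA, ACADVL, ACADM, ECI1, ACAA2, HADHB, DECR1, ACAD9, ACADS, HADH and ECI2. ACADL, a long-chain dehydrogenase, was at 0.436 TPM. ACADVL, the very-long-chain dehydrogenase, stood at 146, 142 and 136 TPM and ACADM, the medium-chain form, at 77.6, 82.5 and 79.9 TPM. HADHA and HADHB encode the subunits of the trifunctional protein and stood at 194, 195 and 199 TPM and at 47.3, 45.8 and 46.1 TPM. The HADHA to HADHB ratio was 4.23 ± 0.117, or 2.91 with principal lengths. ETFA, ETFB and ETFDH, which pass electrons to the respiratory chain, stood at 67.1, 11.1 and 7.80 TPM. The ETFA to ETFB ratio of 6.05 ± 0.195 became 1.83 with principal lengths.

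All 9 peroxisomal oxidation genes reached 1 TPM, with ACOX3, HSD17B4, EHHADH, SCP2, ABCD3, ACAA1 and ACOX2 among them in that order. ACOX3, a branched-chain acyl-CoA oxidase, stood at 218, 217 and 216 TPM. With principal lengths HSD17B4 stood above it, at 241 against 181 TPM, and ACAA1 stood above ABCD3. The regulators at 1 TPM or more were ESRRA, MLYCD, PPARD and PPARA at 40.9, 16.2, 15.1 and 4.86 TPM. PPARGC1A and PPARG, the coactivator and the adipocyte receptor, were at 0.958 and 0.180 TPM. Of 5 ketone body genes, 4 reached 1 TPM, against 65.2% of all genes. ACAT1, OXCT1 and BDH1 stood at 19.7, 16.9 and 6.86 TPM.

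The cholesterol list had the highest median of the lipid lists, 95.7 TPM, with 30 of 31 genes at 1 TPM or more, against 65.2% of all genes. All 9 genes of the early pathway stood above 10 TPM, against 45.8% of all genes. Among them, in order, were HMGCS1, FDPS, ACAT2, IDI1, MVD, PMVK, GGPS1 and MVK. HMGCS1, HMG-CoA synthase, stood at 455, 461 and 471 TPM. ACAT2 was at 177 TPM, with 52.3% of its exon bases shared. All 12 genes of the sterol branch reached 1 TPM. Among them, in order, were MSMO1, FDFT1, DHCR7, SQLE, EBP, TM7SF2, NSDHL, LSS, SC5D, HSD17B7 and CYP51A1. MSMO1, a sterol methyl oxidase, stood at 299.6 ± 6.20 TPM and FDFT1, squalene synthase, at 265 ± 8.52 TPM, and their order turned with principal lengths. CYP51A1 was at 5.78 TPM, with 83.2% of its exon bases shared, so its position at the end of the order is uncertain. For uptake and transport 9 of 10 genes reached 1 TPM, among them, in order, NPC2, STARD4, ABCA1, NPC1, MYLIP, SOAT1 and ABCG1. NPC2, a lysosomal sterol carrier, stood at 318 ± 14.6 TPM. The exporters ABCA1 and ABCG1 stood at 62.4 and 3.82 TPM.

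Of 33 glycerolipid synthesis and lipid droplet genes, 22 (66.7%) reached 1 TPM, near the 65.2% of all genes, with a median of 10.7 TPM. The synthesis order was AGPAT2, AGPAT1, GPAT4, AGPAT5, AGPAT4, AGPAT3, DGAT1, LPIN3, LPIN2, LPIN1, GPAM and DGAT2. DGAT1 and DGAT2, which make triglyceride, stood at 27.8, 29.6 and 26.1 TPM and at 4.02, 3.19 and 4.10 TPM. Of the lipolysis genes, PNPLA2, LIPA, PNPLA3, ABHD5 and LIPE reached 1 TPM, with PNPLA2, the adipose triglyceride lipase, at 70.3 TPM and its inhibitor G0S2 at 0 counts. PLIN3, PLIN2, HILPDA, FITM2 and BSCL2 were the droplet genes at 1 TPM or more. PLIN3, the most widely expressed perilipin, stood at 193, 196 and 184 TPM and held 83.0 ± 1.77% of the perilipin total, or 69.8% with principal lengths. PLIN2 stood at 36.6, 35.5 and 41.8 TPM and PLIN1, the adipocyte form, at 0.308 TPM.

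Membrane lipid enzymes were nearly all present. Of 26 phospholipid genes, 25 reached 1 TPM, against 65.2% of all genes. SELENOI, CHKA, ETNK1, PEMT, PCYT2, PCYT1A, CEPT1, CHPT1, PCYT1B and CHKB covered the choline and ethanolamine branches, from 102 to 2.45 TPM. CDIPT, CDS2, PISD, CRLS1, PTDSS2, PGS1, PTDSS1, TAZ and CDS1 covered serine, inositol and cardiolipin, where CDIPT, phosphatidylinositol synthase, stood at 130 ± 4.68 TPM and TAZ denotes tafazzin. LPCAT1, MBOAT7, LPCAT4, LPCAT3, PLA2G6 and LPCAT2 covered remodelling, with LPCAT1 at 118 ± 2.50 TPM. Of 22 sphingolipid genes, 19 (86.4%) reached 1 TPM. Synthesis ran CERS2, CERS4, DEGS1, SPTLC1, CERS6, UGCG, CERS5, SPTLC2, COL4A3BP, KDSR, SGMS1 and CERS1, and all 7 breakdown genes reached 1 TPM, SGPL1, SPHK2, SMPD1, SMPD2, ASAH1 and SPHK1 among them. CERS2 and CERS4, ceramide synthases, stood at 172 ± 2.71 and 139 ± 2.78 TPM.

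Apolipoproteins were split sharply. APOE stood at 2625, 2710 and 2577 TPM, and APOC1, its neighbour gene, at 265, 289 and 282 TPM, with 43.2% of the exon bases of APOC1 shared. APOA2, APOA1 and APOM stood at 45.5, 25.0 and 2.71 TPM. APOB and MTTP, the core protein of triglyceride-rich lipoproteins and the transfer protein that lipidates it, stood at 0.0933 and 0.0774 TPM, and APOC3 and APOH had 0 counts. APOE was 106 ± 6.49 times APOA1 on the TPM scale, or 165 with principal lengths. Over all lipid lists, 193 of 232 genes reached 1 TPM, against 65.2% of all genes.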

How the data were processed

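Raw counts per gene symbol, deposited by the authors with a gene length in bases, were used for the 3 DE libraries, and 6 other columns of the table were not used. HISAT2 2.1.0, featureCounts 1.6.4 and GRCh38 (hg38) are listed, without a role, per the submitters' processing notes. The annotation release, strand setting and handling of reads with several positions were not given in the sources used here. All 19907 symbols are protein coding in GENCODE release 29, and 19875 (99.8%) have the deposited length of their merged exons there, so longer gene models than the transcripts in use lower a TPM.

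TPM was computed from counts and deposited lengths in Python 3.11.15 with pandas 2.3.3. No test was run, because 1 group holds no contrast. Neighbours in an order were said to differ where their ranges over 3 libraries did not overlap. The 27 lists and 20 families, like the genes they hold, were chosen with earlier results of these data known, and members of a role at 1 TPM or more are named, except some genes that are not reported here. The 30 most abundant genes and up to 5 members of each family are named by rank, and the 10 most uneven genes among those at 10 TPM or more are named by their spread in excess of counting error. CERT1 is counted as COL4A3BP and tafazzin as TAZ. Limits for 0 counts take 3 counts over the libraries together and, like all precision from depth, cover counting error only.

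Library pairs differed by more than sampling noise (chi-square per gene of 2.20 to 3.28), so none was counted as a repeat. TMM factors came from edgeR 4.0.16 and median-of-ratios factors from DESeq2 1.42.0 in R 4.3.3, as alternatives. RefSeq promoters on GRCh38.p14 matched 14896 symbols (74.8%), of which 3905 have more than 1 listed start, and the start listed first was used. Those of SOX17, FOXA2, LEFTY1, LEFTY2, FGF17, TDGF1, LIN28A and FASN were not matched. Exon bases were called shared where any other GENCODE gene, on either strand, covers them. The TPM calculation alone was tested on simulated counts. They were drawn with the same gene lengths, so the test cannot show errors of length, read placement or exon overlap.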

Additional observations from a re-analysis of the deposited data

How the results depend on the processing

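The share of TPM in the 100 most abundant genes, 32.8%, moved to 19.0% as CPM with no length, 30.1% with the longest transcript, 24.7% without mitochondrial-encoded genes and 30.3% with the principal transcript, an alternative chosen after seeing the data. The numbers at 1 TPM or more over all genes and over the lineage, signalling and lipid lists each stayed within 1.5 times their value under every alternative run. With the longest transcript, 31 of 460 list genes moved by over 1.5-fold, all up, and with the principal transcript 154 did, 53 up and 101 down, the widest being VEGFA at 7.48 times its TPM. Leaving out a library moved 1 gene by over 1.5-fold, IHH, to 0.631 of its value without replicate 1. With principal lengths SOX17 stood at 791 TPM (rank 159) and CER1 at 14111 TPM (rank 2). GATA6, CXCR4 and FOXA2 ranked 409, 665 and 1119 with principal lengths, and 221, 1066 and 1430 by CPM. CER1 ranked 4th by CPM, 3rd without replicate 1 or 2 and first without mitochondrial-encoded genes. No paired analysis was possible because only 1 group was described and no test was run. Depth limits genes near 0.1 TPM, where a few counts decide the level.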

Other observations

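Some gene families outside the lists stood out by level. CLDN6, a claudin of tight junctions known from pluripotent and early embryonic epithelium, was at 1337, 1316 and 1318 TPM and ranked 68, with CLDN7, CLDN3, CLDN11 and CLDN12 next at 177, 38.7, 27.1 and 25.3 TPM. Of 55 keratin genes, 37 had 0 counts, as did 2844 of all 19907 genes, and 4 (7.27%) reached 1 TPM, against 65.2% of all genes. Those 4 were KRT8, KRT19, KRT18 and KRT10, at 1234 ± 16.4, 638 ± 18.4, 611 ± 8.97 and 35.6 ± 5.3 TPM. These are keratins of simple epithelia with KRT10 as the exception. SLC2A3, a high-affinity glucose transporter, stood at 2196, 2153 and 2206 TPM and held 93.1 ± 0.318% of the TPM of 14 SLC2A genes, 33.0 ± 1.64 times SLC2A1. Its close copy SLC2A14 makes the split between them uncertain.

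HOX genes were mostly low, with 5 of 39 at 1 TPM or more, against 65.2% of all genes, and 11 at 0 counts. HOXD13, a gene of the posterior end of its cluster, was the highest at 34.9, 32.5 and 37.6 TPM, followed by HOXB13, HOXB2, HOXB3 and HOXD10 at 8.72, 3.41, 2.23 and 1.31 TPM. Of the SOX genes besides SOX17, SOX4, SOX12, SOX15 and SOX18 stood at 160, 120, 82.7 and 55.7 TPM. ZIC2, a zinc-finger factor, stood at 492, 472 and 458 TPM and KLF6 at 167 TPM. Matrix and adhesion genes included ITGB5 and ITGB1, integrin beta subunits, at 530 ± 4.17 and 335 TPM, the collagen genes COL6A1, COL6A2 and COL5A2 at 666 ± 25.0, 448 and 395 TPM, LAMB1 at 120 TPM, the ephrin receptor gene EPHA2 at 251 ± 4.33 TPM and the ephrin gene EFNA2 at 145 TPM.

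The 3 libraries were close to each other. Over the 9109 genes at 10 TPM or more the median coefficient of variation was 3.99%, and 8611 (94.5%) were under 10%. The median counting error, taken for each gene from its mean count, was 3.21%. It is an expected SD, not adjusted to the median spread of 3 libraries, so the 2 values are not directly comparable. The 10 genes with the largest spread beyond counting error were UTF1, GPR89A, LIPT2, KREMEN2, SCT, S100A4, CSNK2B, ENDOG, CITED4 and CHCHD5. Of these, 7 were highest in replicate 2, GPR89A at 8.70, 16.0 and 6.84 TPM among them.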
